A study of Mus musculus with 12 samples.

Results

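The apelin system consists here of the peptide ligands Apela and Apln and of their receptor Aplnr, and it was followed in whole mouse kidneys after ischemia and reperfusion. The members are the 5 probe sets (groups of array probes that report 1 transcript) for which the platform annotation names exactly 1 of these 3 genes, out of 45101 probe sets and 18193 named genes in all. Apela and Aplnr have 2 probe sets each and Apln has 1, and all 5 passed the filter on low signals. The dimmer Aplnr probe set passed through the wild-type arrays alone, and the dimmer Apela probe set through the sham arrays (1 TLR4 null ischemic array was also above the limit). The brighter Aplnr probe set needed the wild-type arrays to pass. Of its TLR4 null arrays only sham replicates 2 and 3 were above the limit. The set was chosen by the measured difference after ischemia in wild-type kidneys, where Apela was among the genes with the largest decreases. The values of that contrast are therefore given as a description, with no test, for all 3 genes.

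Kidneys came from 8-week-old male mice of strain C57BL/10 (wild type) and of C57BL/10ScNJ, of genotype TLR4-/- (without Toll-like receptor 4, called TLR4 null here). TLR4 is an innate immune receptor for bacterial lipopolysaccharide. The right kidney was removed in every mouse, shams included. In ischemic mice the left renal pedicle was clamped for 23 min, in sham mice the clip was laid under the pedicle, and the left kidney was taken at 4 h of reperfusion. Each of the 4 groups has 3 arrays, which the labels call biological replicates. The TLR4 null animals are another substrain, so loss of Tlr4 and other differences between the substrains cannot be told apart.

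Apelin and Apela (also called Elabela or Toddler) are secreted peptides that both activate the apelin receptor, a G protein-coupled receptor that signals mainly through inhibitory G proteins. Blood vessels use it in sprouting and in nitric oxide release. In the kidney the system is known to oppose angiotensin and vasopressin, and adult kidney tubules are known to express Apela. Apelin is also released by fat cells and is induced by hypoxia.

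Array medians ran from 61.2 to 77.4 signal units, and log2 values correlated at r = 0.963 to 0.979 across genes between arrays of a group. Of the 4 Tlr4 probe sets, which check the genotype labels, 2 separated the genotypes. They gave 65.6 to 120 and 72.9 to 135 on the wild-type arrays and 0.901 to 3.38 and 6.33 to 60.4 on the TLR4 null arrays, and the other two were dim and overlapped. The tissue label was borne out by the proximal tubule phosphate transporter Slc34a1 (10131 to 14388) and by uromodulin, Umod (16365 to 21894). RNA integrity was read from the actin controls, as the signal at the 3' end over that at the 5' end. It was 1.88 to 1.99 in wild-type ischemic and 1.68 to 1.82 in wild-type sham kidneys. It was 1.73 to 2.01 and 1.75 to 1.85 in the corresponding TLR4 null kidneys. The same ratio of the Gapdh controls overlapped between surgeries. It was 0.653 to 0.688 in wild-type ischemic and 0.662 to 0.697 in wild-type sham kidneys. The corresponding TLR4 null kidneys gave 0.641 to 0.67 and 0.665 to 0.708. The part of RNA integrity in the differences after ischemia was not tested.

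The main pattern was a split between the ligands. After ischemia Apela was at about 18.3% of its sham signal in wild type and 26.9% in TLR4 null kidneys, while Apln was at 198% and 153% (ratios of mean signals). The wild-type values are a description. In TLR4 null kidneys the Apln groups overlapped, and its call sat at the threshold (limma adjusted p = 0.047). The receptor Aplnr was at 37.0% of sham in wild type, and its mean was lower in TLR4 null than in wild-type kidneys under both surgeries. In TLR4 null ischemic kidneys its signals were 3.71 to 33.5. The deposited table was used here without detection calls, so it is not known whether these are above background, and ratios against them have no fixed size. Between genotypes the Aplnr difference passed the test in ischemic kidneys but not in sham kidneys, and no conclusion on genotype is drawn from it. Neither ligand passed between genotypes.

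**Figure D1:**
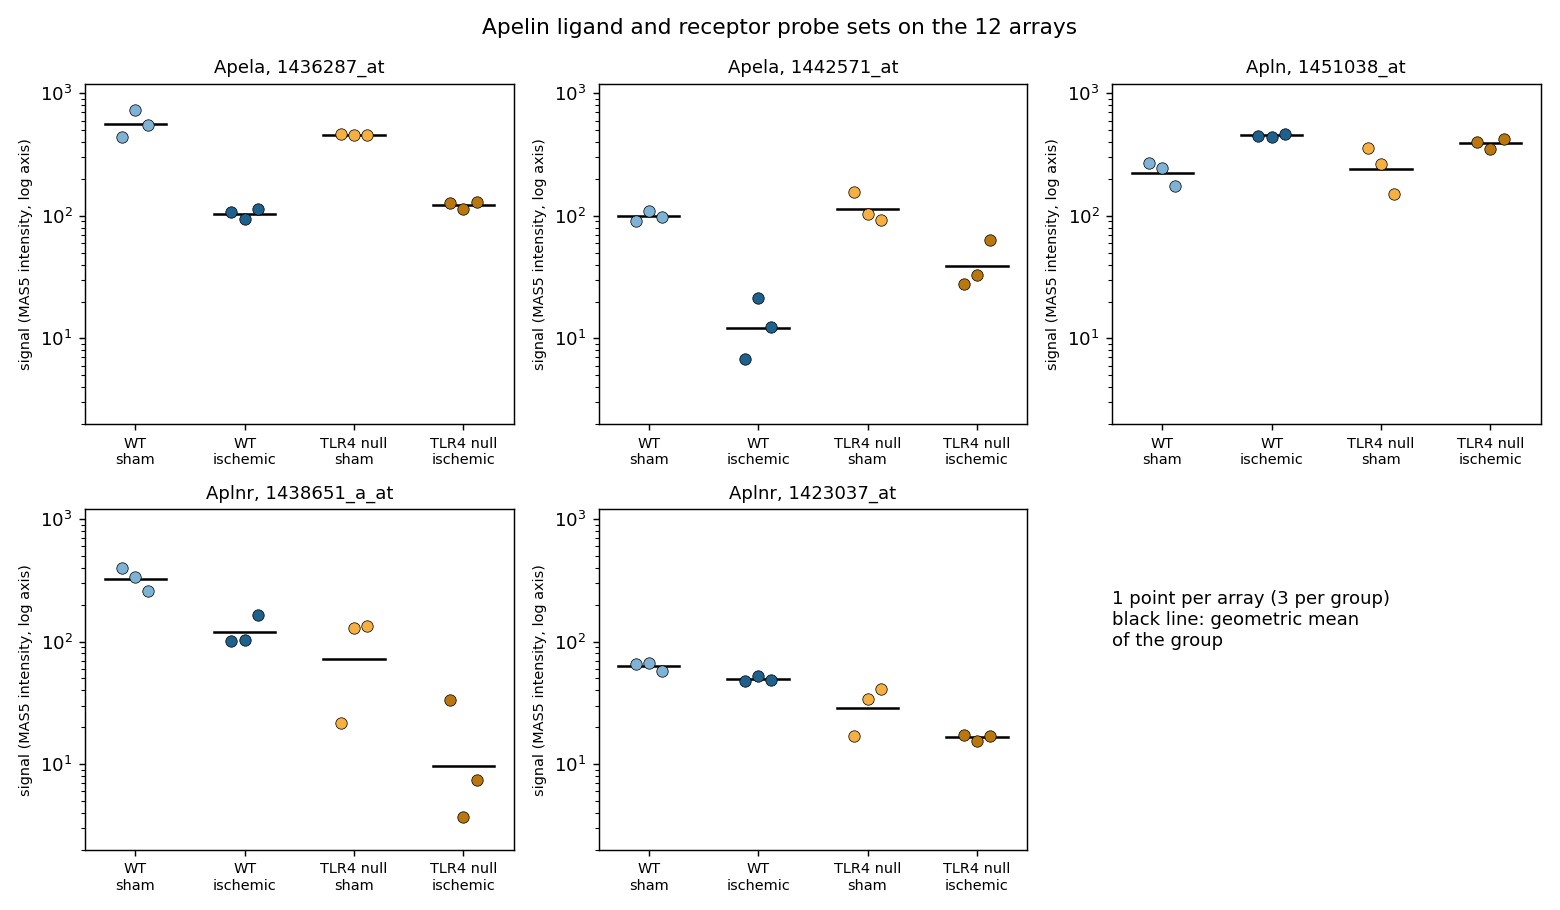
Signal (MAS5 intensity, log axis) of the 5 probe sets of Apela, Apln and Aplnr, with 1 point per array, 3 arrays per group, and a black line at the geometric mean of each group. The Apela points of the ischemic groups lie below those of the sham groups in both genotypes, and the TLR4 null points of both Aplnr probe sets lie below the wild-type points of the same surgery.

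The 250 bases before the start of each ligand gene are shown because the ligands had opposite signs after ischemia. RefSeq promoter windows (GRCm38.p6) were matched for 2 of the 3 members, Apela and Apln. Both are read 5′ to 3′ along the gene, on the minus strand, at chr8:65037337-65037586 for Apela and chrX:48034854-48035103 for Apln. Capitals mark letters matched by a search for 6 motifs.
Apela: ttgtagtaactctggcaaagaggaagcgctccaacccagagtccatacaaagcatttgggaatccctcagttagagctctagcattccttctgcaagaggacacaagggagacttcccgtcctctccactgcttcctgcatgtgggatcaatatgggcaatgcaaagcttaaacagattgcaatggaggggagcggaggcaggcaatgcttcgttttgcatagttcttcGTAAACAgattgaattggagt
Apln: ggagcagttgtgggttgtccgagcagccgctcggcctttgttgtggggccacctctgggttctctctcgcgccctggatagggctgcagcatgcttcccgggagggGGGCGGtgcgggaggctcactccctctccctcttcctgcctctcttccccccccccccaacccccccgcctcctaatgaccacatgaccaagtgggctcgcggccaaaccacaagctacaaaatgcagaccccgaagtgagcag

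The windows differed in base composition: G and C made up 48.0% of the Apela window and 65.2% of the Apln window, against a median of 52.4% over 32851 promoters of the same length. On either strand, the Apela window held 1 match to the forkhead letters GTAAACA, which starts 21 bases before the gene and occurs in 3.2% of all windows. The Apln window held 1 match to the GC box letters GGGCGG, 144 bases before the gene, as 32.7% of all windows do. Neither window held the hypoxia-inducible factor cores ACGTG (16.6% of windows) or GCGTG (28.2%), the AP-1 letters TGANTCA (6.7%) or the TATA box letters TATAAA (12.4%). The cores ACGTG and GCGTG share their last 4 letters but cannot match the same strand position. The forkhead letters were added to the search after the Apela window had been read.

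Apela lies on mouse chromosome 8 (GRCm38.p6, 65028417 to 65037336, minus strand). Probe set 1436287_at, the brighter one, gave 442, 725 and 547 in wild-type sham kidneys and 107, 94.4 and 113 in wild-type ischemic kidneys. TLR4 null kidneys gave 464, 454 and 458 after sham surgery and 127, 114 and 129 after ischemia. Every ischemic array was thus below every sham array of its genotype, and the TLR4 null sham arrays were nearly level with each other. On the scale of each array, the probe set sat at percentile 83.9 to 89.4 of all probe sets in wild-type sham kidneys and at percentile 58.3 to 60.8 after ischemia.

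Differences between groups are given as mean ± SE from a limma model of all 12 arrays, after adding 15 to each signal and taking log2. This scale compresses the folds of dim probe sets. In wild type, Apela was lower after ischemia, at -2.27 ± 0.15, the 4th largest decrease among 14322 genes. The contrast that chose the set did not use the 6 TLR4 null arrays. In TLR4 null kidneys Apela fell, at -1.78 ± 0.15 (n = 3 per group, limma adjusted p = 1.33e-06), which ranked 13th among the decreases. The SE pools all 12 arrays, and earlier results of these data were known when the members were chosen. The test is therefore not fully independent of that choice. The median difference over all genes was -0.09 in wild type and -0.07 in TLR4 null kidneys.

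The second Apela probe set, 1442571_at, was dimmer and showed the same order. It gave 91.5, 110 and 97.7 in wild-type sham and 6.84, 21.4 and 12.5 in wild-type ischemic kidneys. The TLR4 null signals were 157, 103 and 91.8 after sham surgery and 27.6, 33.2 and 63.2 after ischemia. The surgeries did not overlap in either genotype. The difference was -2.03 ± 0.29 in wild type, and -1.25 ± 0.29 in TLR4 null kidneys. Since this probe set passed the filter through the sham arrays, where it is high, these differences are given with no test. Whether its wild-type ischemic signals are above background is not known.

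Tubule markers were set beside Apela, since tubules are known to express it. The markers named here were chosen after their values were seen. After ischemia 3 of 7 proximal tubule markers (Lrp2, Slc5a12 and Cubn) fell in each genotype and 4 did not pass, where 10.5% of all genes in wild type and 11.7% in TLR4 null kidneys were called lower, with list medians of -0.29 in TLR4 null kidneys and -0.26 in wild type. With equal array medians Cubn was lost in both genotypes and Lrp2 in wild type. Their summed signal was 36860 to 40880 in sham and 31080 to 33270 in ischemic TLR4 null kidneys, and 33260 to 36810 against 28980 to 35210 in wild type. Of 4 markers of the thick ascending limb 1, the potassium channel gene Kcnj1, fell in each genotype (-1.03 ± 0.09 in wild type and -0.95 ± 0.09 in TLR4 null kidneys). Of 6 distal tubule and collecting duct markers 0 fell in wild type and 2, Calb1 and Hsd11b2, in TLR4 null kidneys. None of these markers was at 0. Their part in the Apela difference was not tested.

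Apln, the gene of apelin itself, lies on chromosome X (48025146 to 48034853, minus strand). Its probe set 1451038_at gave 268, 244 and 175 in wild-type sham kidneys and 452, 444 and 466 in wild-type ischemic kidneys. TLR4 null kidneys gave 356, 264 and 152 after sham surgery and 400, 354 and 426 after ischemia. The ischemic arrays were close together in both genotypes. In wild type they lay above all sham arrays, whereas in TLR4 null kidneys sham replicate 1 (356) overlapped the lowest ischemic array (354).

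In wild type, Apln was higher after ischemia by 0.96 ± 0.22, with a 95% interval of 0.49 to 1.43. In TLR4 null kidneys it rose by 0.66 ± 0.22 (interval 0.18 to 1.13, limma adjusted p = 0.047 over genes). That call sat at the threshold: in the fit over all probe sets the adjusted p was 0.0562, and over the alternatives tried it ran from 0.00649 to 0.669. Without TLR4 null sham replicate 3 the difference was 0.34 ± 0.17 (adjusted p = 0.212), and it was also lost without any 1 of the wild-type ischemic arrays (0.0594, 0.0584, 0.058), wild-type sham replicate 1 (0.0503) or 2 (0.0568), any 1 of the TLR4 null ischemic arrays (0.105, 0.0588, 0.111) or TLR4 null sham replicate 2 (0.075).

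Since apelin is also a product of fat cells, the fat markers were set beside it. The summed signal of the 4 measured markers of 7 listed (none at 0, Adipoq at 34.8 to 1620 signal units) ran from 5276 to 8989 in wild-type sham and from 4351 to 12750 in wild-type ischemic kidneys. TLR4 null kidneys ran from 2898 to 5537 after sham surgery and from 2377 to 9023 after ischemia. None of the 4 passed the limma test in any of the 5 comparisons. With the fat marker level as a covariate, Apln differed after ischemia by 0.93 ± 0.23 in wild type and by 0.65 ± 0.23 in TLR4 null kidneys (limma adjusted p = 0.0566).

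Aplnr, the receptor, lies on chromosome 2 (85136360 to 85139923). Its brighter probe set, 1438651_a_at, gave 398, 338 and 260 in wild-type sham kidneys and 101, 103 and 165 in wild-type ischemic kidneys. The TLR4 null arrays gave 21.7, 129 and 133 after sham surgery and 33.5, 3.71 and 7.37 after ischemia. In wild type every ischemic array was below every sham array. The TLR4 null surgeries overlapped, since sham replicate 1 stood far below the other sham arrays.

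In wild type, Aplnr was lower after ischemia, at -1.34 ± 0.46, with an interval of -2.33 to -0.36. In TLR4 null kidneys it fell, at -1.76 ± 0.46 (interval -2.74 to -0.77, limma adjusted p = 0.0127). This call was lost without TLR4 null ischemic replicate 2 (-1.49 ± 0.50, adjusted p = 0.0524) and without sham replicate 2 (adjusted p = 0.0665) or 3 (0.067), in a range of 0.000325 to 0.854 over all alternatives. The size depended on the number added before taking logs, being -2.73 with 1 and -0.96 with 60, and 2 of the TLR4 null ischemic signals lay at percentiles 7.22 and 10.9 of their arrays. The other probe set, 1423037_at, did not pass after ischemia in TLR4 null kidneys (-0.49 ± 0.29, limma adjusted p = 0.289, where 16.7% of 30326 probe sets passed) and was at -0.28 ± 0.29 in wild type.

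All 3 genes passed in TLR4 null kidneys, where 21.6% of the 14322 tested genes passed in either direction. With the array medians made equal, 2014 genes passed there (1094 higher and 920 lower) in place of 3088 (1412 and 1676). The decreases of Apela and Aplnr stand against 11.7% of genes called lower there, and the increase of Apln against 9.86% called higher. In wild type 19.6% of genes passed, 1313 higher and 1501 lower (1239 and 549 with equal array medians). There all 3 members had surgery groups without overlap, as had 39.3% of genes. Of the 3, Apela alone did in TLR4 null kidneys, against 34.0%.

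**Figure D2:**
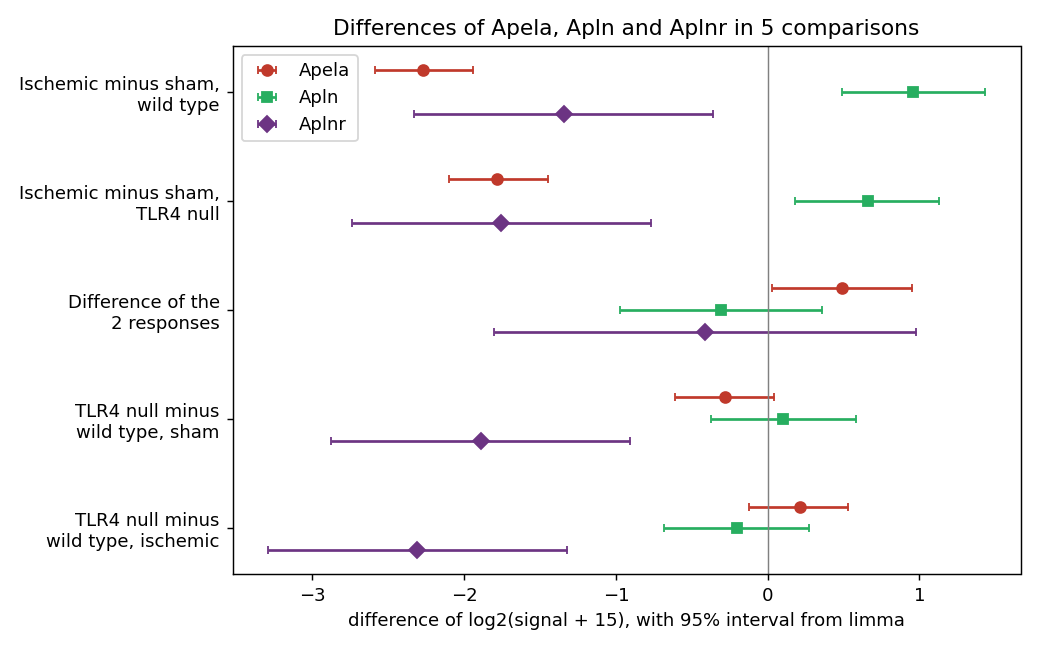
Differences of Apela, Apln and Aplnr on the log2(signal + 15) scale, with 95% intervals from limma, in 5 comparisons of 3 arrays per group (12 arrays in the difference of the responses). Apela lies between -2.27 and -1.78 after ischemia and near 0 between genotypes, Apln lies above 0 after ischemia, and Aplnr is below 0 in both the surgery and the genotype comparisons.

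The design also asks whether the response to ischemia depends on TLR4. For the 3 members the difference between the responses is given with no test, since it subtracts the wild-type difference that chose the set. It was 0.49 ± 0.22 for Apela, where a positive value is a smaller decrease in TLR4 null kidneys. For Apln it was -0.31 ± 0.31 and for Aplnr -0.41 ± 0.65, and the Aplnr value changed sign to 0.14 with a pseudocount of 60. No gene of 14322 passed this comparison in limma (0% called; 15 without TLR4 null ischemic replicate 3), while 913 genes had an unadjusted p below 0.05.

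The genotype comparisons set TLR4 null against wild-type kidneys after the same surgery, and Aplnr was the member that passed in 1 of them. They share wild-type arrays with the contrast that chose the set. Their tests of Aplnr are therefore not independent of that choice. In sham kidneys Aplnr was lower in TLR4 null mice, at -1.89 ± 0.46 (interval -2.88 to -0.91). The wild-type arrays (260 to 398) lay above all TLR4 null arrays (21.7 to 133), as 8.63% of genes were lower without overlap, but the difference did not pass (limma adjusted p = 0.117). It was -1.23 ± 0.35 without TLR4 null sham replicate 1 (adjusted p = 0.248), in a range of 0.0394 to 0.795 over all alternatives. In ischemic kidneys Aplnr was lower in TLR4 null mice, at -2.31 ± 0.46 (interval -3.29 to -1.32) and passed (limma adjusted p = 0.0351). The wild-type arrays gave 101 to 165 and the TLR4 null arrays 3.71 to 33.5, without overlap, as 7.63% of genes were lower. The TLR4 null side of this difference is not known to be above background. This probe set also met the filter only with the wild-type arrays, where it is high. The filter thus favoured a difference in this direction, and no conclusion on genotype is drawn from these tests.

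The ischemic call was near the threshold. It was lost without any 1 of the wild-type ischemic arrays (adjusted p = 0.0724, 0.076 and 0.174), without wild-type sham replicate 1 (0.0518) or 2 (0.0502), and without TLR4 null ischemic replicate 2 (0.11) or 3 (0.0526). Over all alternatives its adjusted p ran from 0.0072 to 0.65 and its size from -1.29 to -3.44. Of the 3 members, 1 passed in ischemic kidneys and 0 in sham kidneys, where limma called 0.656% (0.517% lower) and 0.314% of genes. Groups without overlap in either direction made up 14.7% and 16.7% of genes. All 3 members were without overlap in ischemic kidneys and Aplnr alone in sham kidneys. In sham kidneys Aplnr alone of the 3 had an unadjusted p below 0.05 in limma, as had 1339 of 14322 genes.

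The dimmer Aplnr probe set passed the filter through the wild-type arrays alone, where it is high, so its genotype values are given with no test. It gave 65.4, 66.9 and 58.1 in wild-type sham kidneys against 17.0, 34.0 and 40.9 in TLR4 null sham kidneys. After ischemia it gave 47.7, 52.7 and 48.8 in wild type against 17.3, 15.4 and 17.0 in TLR4 null kidneys. The TLR4 null arrays lay at percentiles 20.5 to 37.6 of their arrays and the wild-type arrays at percentiles 41.4 to 48.7.

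Neither ligand passed between genotypes, in comparisons that share wild-type arrays with the contrast that chose the set. Apela was at -0.28 ± 0.15 in TLR4 null against wild-type sham kidneys (interval -0.61 to 0.04, limma adjusted p = 0.626) and at 0.21 ± 0.15 in ischemic kidneys (interval -0.12 to 0.53, adjusted p = 0.649). On both Apela probe sets the TLR4 null ischemic arrays were all above the wild-type ischemic arrays, as in 7.04% of probe sets, with 114 to 129 against 94.4 to 113 on the brighter one. On the dimmer one the difference was 0.96 ± 0.29. Its wild-type ischemic signals lay at percentiles 12.7 to 25.8 of their arrays. Whether they are above background is not known, so this difference has no fixed size. Apln was at 0.10 ± 0.22 in sham kidneys (interval -0.37 to 0.58, limma adjusted p = 0.944), where the sign turned to -0.16 without TLR4 null sham replicate 1, and at -0.20 ± 0.22 in ischemic kidneys (interval -0.68 to 0.27, adjusted p = 0.776). The medians of the 4 fat markers between genotypes were -0.88 in sham and -1.13 in ischemic kidneys, with none past the test.

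In the order of their mean signals, Apela ran from wild-type sham (572 ± 143, SD, n = 3) and TLR4 null sham (458 ± 4.84), which overlap, to TLR4 null ischemic (123 ± 8.12) and wild-type ischemic (105 ± 9.51). Apln ran from wild-type ischemic (454 ± 11.0) and TLR4 null ischemic (394 ± 36.4) to TLR4 null sham (257 ± 102) and wild-type sham (229 ± 48.1). The sham groups of Apln overlap, and so do its TLR4 null ischemic and TLR4 null sham groups. Aplnr ran from wild-type sham (332 ± 68.8) through wild-type ischemic (123 ± 36.4) and TLR4 null sham (94.6 ± 63.1), which overlap, to TLR4 null ischemic (14.8 ± 16.2). The TLR4 null sham and ischemic groups of Aplnr overlap as well. On these brighter probe sets the receptor and Apela means were both highest in wild-type sham kidneys. The lowest Aplnr group was TLR4 null ischemic and the lowest Apela group wild-type ischemic. On the dimmer Apela probe set the highest mean was in TLR4 null sham kidneys (117, against 99.7 in wild-type sham), and these groups overlapped.

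Aplnr is known as an endothelial gene, so endothelial markers were set beside it. Of 15 markers, 13 (86.7%) had lower means after ischemia in wild type and 11 (73.3%) in TLR4 null kidneys, against 60.2% and 58.3% of all genes. There 4 (Tek, Ptprb, Plvap and Flt1) and 8 fell past the limma test, where 10.5% and 11.7% of all genes did, among them the angiopoietin receptor Tek (-1.07 ± 0.13 and -1.28 ± 0.13) and Plvap, a protein of endothelial diaphragms (-0.65 ± 0.20 and -0.88 ± 0.20), which are named as examples after their values were seen. After ischemia Cdh5 (0.19 ± 0.18 and 0.39 ± 0.18), Esam (0.30 ± 0.12 and 0.11 ± 0.12), Pecam1 (-0.05 ± 0.17 and 0.07 ± 0.17) and Cldn5 (-0.04 ± 0.14 and 0.07 ± 0.14) did not pass. Between genotypes 12 of 15 had lower means in TLR4 null sham and 13 of 15 in TLR4 null ischemic kidneys, against 51.6% and 49.0% of all genes, with medians of -0.16 and -0.27. None passed in sham kidneys and 1, Ehd3, in ischemic kidneys (-0.60 ± 0.12, limma adjusted p = 0.0407). An unadjusted p below 0.05 in limma was seen for 3 and 6 markers, against 1339 and 1639 of 14322 genes (sham and ischemic). The pan-endothelial Pecam1 (-0.34 ± 0.17 in sham and -0.21 ± 0.17 in ischemic kidneys) and Cdh5 (-0.16 ± 0.18 and 0.04 ± 0.18) did not pass. With equal array medians 2 and 5 markers fell after ischemia, and Ehd3 did not pass (adjusted p = 0.0931). In whole kidneys, fewer cells of a type and less RNA per cell cannot be told apart.

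The summed signal of the 15 endothelial markers, none of which was at 0, ran from 7636 to 9153 in wild-type sham and from 5883 to 7210 in wild-type ischemic kidneys. It ran from 6642 to 7145 in TLR4 null sham and from 4624 to 5245 in TLR4 null ischemic kidneys. TLR4 null sham replicate 1, far below its group in Aplnr, was close to it in this sum (6642, against 7145 and 6787). With the mean endothelial marker level as a covariate, an alternative chosen after seeing the data, none of the tested Aplnr comparisons passed. Aplnr was then at -0.38 ± 0.70 after ischemia in wild type and -0.40 ± 0.90 in TLR4 null kidneys (limma adjusted p = 0.854). Between genotypes it was at -1.27 ± 0.56 in sham (adjusted p = 0.795) and -1.29 ± 0.73 in ischemic kidneys (adjusted p = 0.65). With the fat marker level as a covariate in its place, Aplnr was at -2.00 ± 0.53 between genotypes in ischemic kidneys (adjusted p = 0.167). With the endothelial covariate Apela was at -1.31 ± 0.29 after ischemia in TLR4 null kidneys (adjusted p = 0.0198). The covariate differs between the groups, and the part of endothelial cells in these results was not tested.

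**Figure D3:**
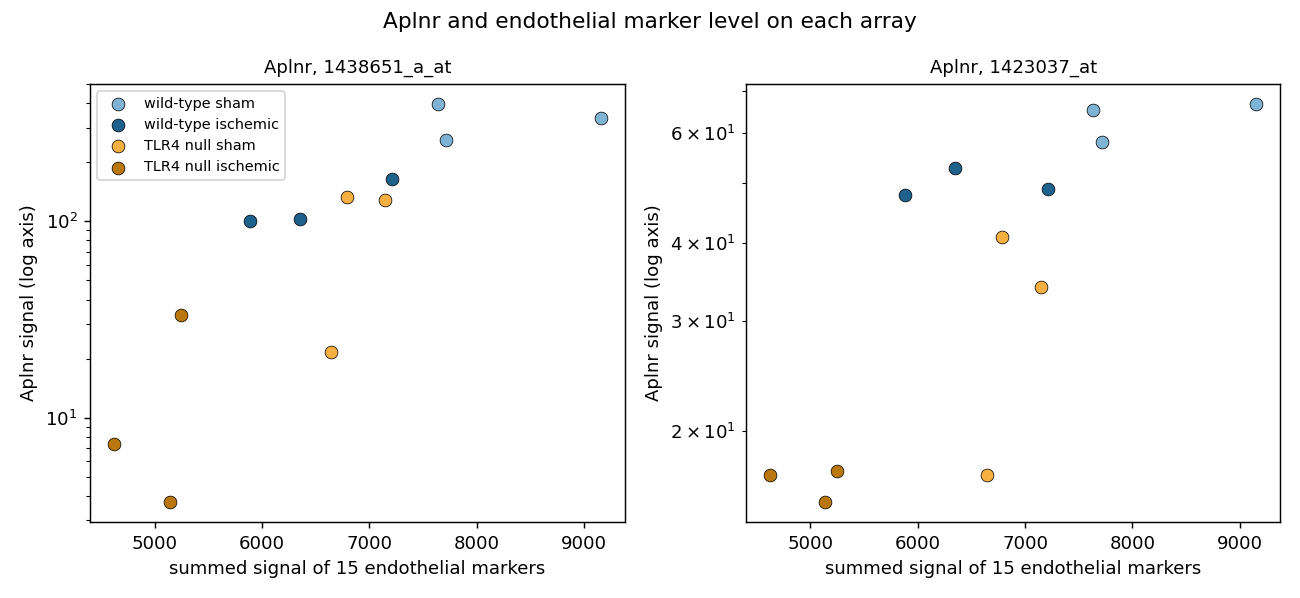
Aplnr signal (log axis) against the summed signal of 15 endothelial markers, 1 point per array and 12 arrays in 4 groups, for each Aplnr probe set. The TLR4 null ischemic arrays are lowest on the horizontal axis (4624 to 5245) and the wild-type sham arrays highest (7636 to 9153), and TLR4 null sham replicate 1 is low in Aplnr at a marker sum of 6642.

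Around the receptor, 65 genes in 5 lists were followed, of which 56 were tested and 9 are not analysed here. These lists and the marker lists above were chosen with earlier results of these data known. Their shares of called genes, here and below, are therefore no independent result. After ischemia 12 of the 56 rose and 9 fell in wild type (37.5% called, where 9.17% of all genes rose and 10.5% fell), and 9 rose and 8 fell in TLR4 null kidneys (30.4%, where 9.86% rose and 11.7% fell). The decreases in wild type numbered 5 without wild-type ischemic replicate 3 and 4 with equal array medians. Those lost under equal medians were Gnai1, Arrb1, Ace, Agtr1a and Ramp2. The 13 genes called in both genotypes had the same sign in each. The medians over the 56 were 0.05 and -0.10. None of the 56 passed between genotypes or in the difference of the responses, where 9, 12 and 4 had an unadjusted p below 0.05 in limma (sham, ischemic and difference). Of all 14322 genes, 1339, 1639 and 913 had such a p.

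Of 5 measured enzymes that process or break down apelin peptides, Mme alone passed in each genotype, 1 of 5 where 19.6% of all genes passed in wild type and 21.6% in TLR4 null kidneys. Mme encodes neprilysin, a membrane peptidase that cuts apelin, and it fell, at -0.66 ± 0.09 in wild type (limma adjusted p = 0.000111) and at -0.56 ± 0.09 in TLR4 null kidneys (adjusted p = 0.000471). Its signals were 2015 to 2178 in wild-type sham and 1197 to 1383 in wild-type ischemic kidneys. The proprotein convertase Furin was at -0.06 ± 0.10 and -0.24 ± 0.10 (wild type and TLR4 null). The carboxypeptidase Prcp was at -0.24 ± 0.14 and -0.18 ± 0.14, and plasma kallikrein (Klkb1) at -0.48 ± 0.53 and -0.14 ± 0.53.

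Of 10 G proteins, receptor kinases and arrestins, Gnai3 and Gna13 rose in both genotypes, and in wild type Gnai1 and Arrb1 fell. The share called was 40% in wild type and 20% in TLR4 null kidneys, against 19.6% and 21.6% of all genes. With equal array medians Gnai1 and Arrb1 were not called in wild type (limma adjusted p = 0.278 and 0.0815). Gnai3, an inhibitory G protein subunit, rose by 0.45 ± 0.08 in wild type (limma adjusted p = 0.00107) and 0.44 ± 0.08 in TLR4 null kidneys. Gna13, another G protein alpha subunit, rose by 0.59 ± 0.13 and 0.57 ± 0.13. Gnai1 was at -0.33 ± 0.08 and the arrestin Arrb1 at -0.55 ± 0.16 in wild type (adjusted p = 0.0101 and 0.0248). The list's medians were 0.07 and 0.02, against -0.09 and -0.07 over all genes.

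Of 18 downstream effectors, 5 rose in wild type (Klf4, Nos3, Hdac5, Pik3cb and Map2k1) and 1 fell (Mtor). In TLR4 null kidneys 4 rose (Klf4, Nos3, Pik3cb and Hdac4) and 2 fell (Mtor and Prkaa2). The share called was 33.3% in each genotype, against 19.6% of all genes in wild type and 21.6% in TLR4 null kidneys. With equal array medians Pik3cb and Map2k1 were not called in wild type (limma adjusted p = 0.0653 and 0.12), nor Hdac4 and Prkaa2 in TLR4 null kidneys (0.0725 and 0.218). Nos3, the endothelial nitric oxide synthase, rose by 0.90 ± 0.15 and 0.84 ± 0.15 (limma adjusted p = 0.000493 and 0.000839), from 142 to 182 in wild-type sham to 265 to 329 in wild-type ischemic kidneys. The transcription factor Klf4 rose by 1.41 ± 0.16 and 1.07 ± 0.16, and the related Klf2 did not pass (0.21 ± 0.14 and -0.10 ± 0.14). The growth kinase Mtor fell, at -0.91 ± 0.09 and -0.70 ± 0.09, and the catalytic subunit Pik3cb rose by 0.64 ± 0.22 and 0.84 ± 0.22. Nos3 and Aplnr, both known from endothelium, thus had opposite signs after ischemia in each genotype. Of the 15 endothelial markers above, 13 in wild type and 11 in TLR4 null kidneys had lower means, against 60.2% and 58.3% of all genes.

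Of 11 measured genes of other vasoactive and water-balance peptide systems, 2 rose (Adm and Edn1) and 5 fell in wild type (Avpr2, Ednrb, Agtr1a, Ramp2 and Ace), and 1 rose and 3 fell in TLR4 null kidneys. These are 63.6% and 36.4% of the list, where 19.6% and 21.6% of all genes were called. With equal array medians Agtr1a, Ramp2 and Ace were not called in wild type (limma adjusted p = 0.182, 0.0705 and 0.138). The vasodilator peptide gene Adm rose by 1.07 ± 0.14 in each genotype (limma adjusted p = 8.04e-05 and 8.01e-05), and its receptor partner Ramp2 fell, at -0.46 ± 0.13 and -0.67 ± 0.13. The vasopressin receptor Avpr2 fell, at -0.96 ± 0.16 and -0.85 ± 0.16, and the endothelin receptor Ednrb at -0.89 ± 0.20 and -0.63 ± 0.20. The angiotensin receptor Agtr1a fell in wild type (-0.46 ± 0.12, adjusted p = 0.0163) and was at -0.34 ± 0.12 in TLR4 null kidneys (adjusted p = 0.0623).

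Apelin marks the tip cells of sprouting vessels, and 12 other tip cell genes were tested, Kdr among them, which is also an endothelial marker above. In wild type Plaur (1.64 ± 0.20), Pdgfb (1.49 ± 0.13) and Esm1 (1.06 ± 0.23, limma adjusted p = 0.00419) rose. In TLR4 null kidneys Plaur (1.86 ± 0.20) and Pdgfb (1.56 ± 0.13) rose, and Kdr (-0.42 ± 0.11) and Igfbp3 (-0.72 ± 0.13) fell. The calls made up 25% of the list in wild type and 33.3% in TLR4 null kidneys, against 19.6% and 21.6% of all genes. Plaur, the urokinase receptor, is also made by other injured and inflammatory cells. Esm1 was at -0.07 ± 0.23 in TLR4 null kidneys, and the difference of its responses did not pass (-1.13 ± 0.33, adjusted p = 0.536).

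**Figure D4:**
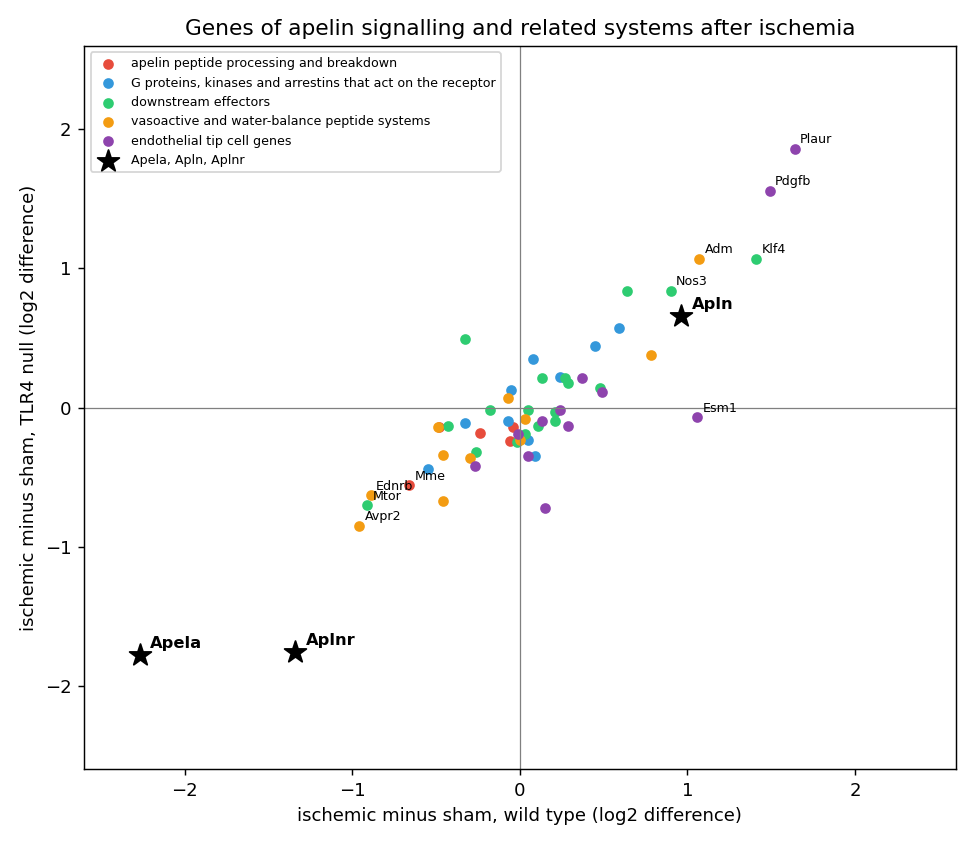
Log2 difference after ischemia in wild type (horizontal) and in TLR4 null kidneys (vertical) for 56 genes of 5 lists, coloured by list, and for the 3 members (stars), each from 3 arrays per group. Most points lie between -1 and 1 on both axes, Apela and Aplnr lie at the lower left, and Apln lies with Nos3, Adm and Klf4 at the upper right.

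The genes whose log2 values over the 12 arrays were most like those of each member are given as a description. The arrays share the 4 groups, so each r includes the surgery and genotype differences. For Apela they were Wnk1, a kinase that regulates salt transport (r = 0.986), the uridine phosphorylase Upp2 (0.978), the transcription factor Tcf21 (0.973), Septin8 (0.972) and Fam234b (0.969). After removal of group means the correlation was 0.85 for Wnk1 and 0.25 for Upp2. The decrease of Wnk1 was -0.77 in wild type and -0.78 in TLR4 null kidneys, smaller than that of Apela.

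For Apln the closest were the nuclear receptor Nr2f6 (r = 0.943), the phosphatase Ptpn21 (0.934), the AP-1 subunit Fosb (0.915), Sele, the endothelial leukocyte adhesion molecule E-selectin (0.912), and the RNA-binding Hnrnpc (0.908). Their correlations within groups ran from 0.72 to 0.84. For Aplnr they were the scaffold protein gene Grasp (r = 0.950), the matrix protease Adamts5 (0.928), the ornithine aminotransferase Oat (0.914), the transcription factor Snai2 (0.914) and the cadherin Cdh11 (0.912). Their correlations within groups ran from 0.56 to 0.86. All 5 had lower means after ischemia in both genotypes and in TLR4 null than in wild-type kidneys under both surgeries, as Aplnr had. The choice by r favours genes with this pattern, so it is no separate result. Cdh11, for example, was at -0.66 in sham and -0.73 in ischemic kidneys between genotypes.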

How the data were processed

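The deposited table holds the intensity of 45101 probe sets on 12 arrays, which the authors computed with the MAS5 algorithm per the submitters' processing notes. Its version and target scaling value were not given in the sources used here. The deposited scaling was kept. The number added before log2, 15, is the rounded percentile 20 of the whole table. Probe sets over their array's 40th percentile in at least 3 arrays were tested (30326). Names came from the platform annotation, updated through Entrez numbers to RefSeq. A gene was represented by its probe set with the highest mean (14322 genes). With 3 arrays per group, the number of arrays limits the precision.

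Tests used limma 3.58.1 in R 4.3.3 (lmFit, eBayes with a trend) with 4 group means and 8 residual degrees of freedom, two-sided, with Benjamini-Hochberg adjustment over all genes or all probe sets and a threshold of 0.05. Intervals are 95%. The fit was tested on simulated data. Alternatives were other scalings, pseudocounts (1 and 60), filters, probe set rules and variance models, array weights, marker covariates, the replicate block, and each array left out in turn; the endothelial covariate was chosen after seeing the data.

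The members and gene lists were chosen with earlier results of these data known. Named from the lists were called genes, up to 4 of each with values by smallest p, and Furin, Mme, Prcp, Klkb1, Nos3, Klf2, Klf4, Avpr2, Agtr1a and Esm1 whatever their p; for likeness, the 5 highest Pearson correlations. Same-numbered arrays did not deviate together (r = -0.06 to 0.10 over 18 pairs), so the numbers were not taken as pairs. Figures used Python 3.11.15 with matplotlib 3.10.9.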

Additional observations from a re-analysis of the deposited data

How the results depend on the processing

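Apela kept its direction and its side of the threshold in TLR4 null ischemic against sham kidneys under all 26 alternatives, -1.89 to -1.31 with limma adjusted p from 5.42e-07 to 0.0198. In wild type, as a description, Apela was at -1.92 with a pseudocount of 60 and -1.94 with the endothelial marker level as a covariate, and Aplnr was at -0.38 with that covariate.

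The call of Apln in TLR4 null kidneys was lost with quantile normalization (0.63), a pseudocount of 1 (0.69), no filter, probe sets averaged per gene, no variance trend or only the 6 arrays compared (each 0.66), and with the fat (0.65) or endothelial (0.42) covariate. Leaving out 1 array gave 0.34 to 0.92 and lost the call in 10 of 12 cases. That of Aplnr there was lost with only the arrays compared (-1.76) and with the endothelial covariate (-0.40), and leaving out 1 array gave -2.42 to -1.42. Between the responses, Aplnr turned to 0.14 with a pseudocount of 60. In sham kidneys between genotypes, Apln turned to -0.16 with array weights and was 0 to 2 decimals with the endothelial covariate, and leaving out 1 array gave -0.16 to 0.42; Aplnr passed at -1.43 with a pseudocount of 60. In ischemic kidneys between genotypes, Aplnr lost its call at an unchanged -2.31 without the filter, without the trend and with only the arrays compared, and at -2.00 and -1.29 with the fat and endothelial covariates. Leaving out 1 array gave -2.72 to -2.03 there. The cause of these losses was not tested.

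Over all genes, equal array medians gave 1788 calls in wild type (2814 before), 2014 in TLR4 null kidneys (3088) and 22 between sham groups (45). The endothelial covariate gave 1237, 802, 3 and 1 (of 94 between ischemic groups). Between sham groups there were 4 calls without the trend, 160 with array weights and 81 with only the arrays compared. Between ischemic groups the numbers were 20, 164 and 17, with 47 without the filter and 14 with the fat covariate. Leaving out 1 array gave 0 to 15 calls between the responses and 2 to 61 between sham groups (2 and 4 without wild-type replicates 1 and 2, and 9, 18 and 5 without TLR4 null replicates 1, 2 and 3). Between ischemic groups it gave 10 to 244: 58, 47 and 10 without wild-type ischemic replicates 1, 2 and 3, 43, 48 and 244 without TLR4 null ischemic replicates 1, 2 and 3, and 45 without TLR4 null sham replicate 3.

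Pathway genes that fell in wild type numbered 4 with equal medians, 2 with the endothelial covariate and 5 to 9 with 1 array left out (9 before). In TLR4 null kidneys 4 rose and 1 fell with that covariate (9 and 8 before).

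With the replicate number as a block, 61 genes passed between ischemic groups in place of 94, and Aplnr did not (-2.31, limma adjusted p = 0.0601); no other call of the 3 genes changed. Only 5 of 12 arrays correlated best with an array of their own number, so the pairing rests on a shared number. The fit with only the arrays compared gives no difference between the responses. Signal limits the Aplnr values in TLR4 null kidneys, which lie under the array's percentile 40 (40.3 to 51.6 signal units) on 4 of 6 arrays.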
